A study of Mus musculus with 12 samples.

Results

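The MYC network is described here through 10 genes, Myc, Mycn, Max, Mnt, Mga, Mxd1, Mxd3, Mxd4, Mxi1 and Mlx, out of 37187 genes measured. They were chosen by name, as the transcription factors that pair with MYC, MAX or MLX; the rule uses no measured value, although earlier results of these data were known when the genes were picked. All 10 passed the filter on low values (10 or more in 3 or more libraries), and each was above 10 in every library. RNA-seq was run on mouse bone marrow cells sorted as lineage-negative, Sca-1-positive and CD117 (c-Kit)-positive, the gate that holds blood stem cells and multipotent progenitors. There were 12 libraries, 3 in each of 4 genotypes: wild type (WT), Tet2 KO, Traf6 KO and the double knockout (dKO), which lacks both Tet2 and Traf6 by its label. The labels give no treatment that the groups share. They also give no allele, Cre driver, age, sex or pooling of animals. By its title the study concerns TRAF6 as a regulator of MYC in acute myeloid leukaemia, which is the question these genes bear on. The data here are RNA levels of sorted bone marrow cells, and MYC protein was not measured in them. They therefore cannot show whether TRAF6 acts on MYC protein or in leukaemia.

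MYC and MYCN switch genes on only as partners of MAX, by binding the short DNA word CACGTG, the E-box. The MXD proteins, MXI1 and MNT also pair with MAX, bind the same word and bring the SIN3-HDAC corepressor, so that they oppose MYC. MGA is a large MAX partner that sits in a Polycomb complex (PRC1.6), and MLX is a MAX-like protein that pairs with MNT, with some MXD proteins and with the sugar sensors MondoA and ChREBP. In mouse bone marrow, Myc and Mycn are known to overlap in keeping stem and progenitor cells alive and dividing.

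The E-box is also present in front of some of the network's own genes. In the RefSeq promoter windows of build GRCm38.p6, which run from 250 bases before to 50 after each gene's start, 9 of the 10 genes had an entry, Myc being the one without. CACGTG, which reads the same on both strands, was found in 4 of those 9 genes. It was found in 7.15% of the 32851 windows of all genes, and in 11.7% of the 9433 tested genes with a window. The stretches around it are shown because this word is the one the 10 proteins' dimers bind; each is 5′ to 3′ on the gene's strand, ends no later than the start site or the word itself, and has CACGTG in capitals.
Mxd4, chr5:34187884-34187960, minus strand: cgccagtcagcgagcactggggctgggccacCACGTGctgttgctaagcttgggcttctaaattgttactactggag
Mnt, chr11:74830761-74830846, plus strand: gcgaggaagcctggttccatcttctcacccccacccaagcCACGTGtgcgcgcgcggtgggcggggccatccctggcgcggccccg
Mlx, chr11:101087210-101087289, plus strand: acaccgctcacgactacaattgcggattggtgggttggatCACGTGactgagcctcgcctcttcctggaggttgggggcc
Max, chr12:76962246-76962291, minus strand: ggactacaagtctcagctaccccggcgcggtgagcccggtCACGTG
The word began 219 bases before the start of Mxd4, 123 before that of Mnt, 40 before that of Mlx and 3 before that of Max. The windows of Mycn, Mga, Mxd1 and Mxd3 and the 3 windows of Mxi1 did not hold these letters. A match is a description of the sequence, and binding was not measured.

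Values are normalised counts, that is reads divided by a size factor of the library, and 1 read was worth 0.518 to 1.79 units. The libraries held 22169673 to 53921402 reads, and the 10 genes had from 143 reads (Mnt in dKO replicate 3) to 44790 reads (Myc in Tet2 KO replicate 3). Some libraries stood apart, or had a WT-like level of the gene that their label names as lost. The labels give no allele, so whether a knockout should lower that gene's count is not known. The normalised total of dKO replicate 3 was 39973892, against 25557760 to 28916082 in the other libraries. Tet2 was 525.1 to 782.6 in WT; the library labelled Tet2 KO replicate 1 fell inside that span at 667.7, and the other Tet2 KO libraries had 402.7 and 486.1. Tet2 was as low in Traf6 KO replicates 2 and 3 (338.7 and 426.9, with 722.1 in the library labelled replicate 1), so its level does not separate Tet2 KO from Traf6 KO. Traf6 was 1935 to 3005.8 in WT; the library labelled Traf6 KO replicate 1 had a WT-like 2473.9, and the others of that group 853.8 and 568, while Tet2 KO had 3127.3, 1431.8 and 1775.5. In dKO, Tet2 was 197 to 325.6 and Traf6 798.6 to 1313.4, on the deposited values only. Both transcripts are long: the WT mean was 682.4 or 74.3 per kb of transcript for Tet2, and 2632.4 or 427 per kb for Traf6. Long transcripts were low in dKO as a whole, so these levels do not by themselves show the loss of either gene. Xist was 990.3 to 3825.6 in the single knockouts and at most 17 in WT and dKO, so genotype and that split of the libraries cannot be told apart when a single knockout is set against WT or dKO. Eif2s3y, a Y-linked gene, was 2812.3 to 5668.5 in WT and dKO and at most 55.4 in the single knockouts, except for 1524.3 in the library labelled Traf6 KO replicate 1, which thus held both. In dKO, values followed transcript length: the rank correlation of a library's log2 values (relative to the mean of all libraries) with length was -0.549 to -0.638, against -0.418 to 0.315 in the other 9 libraries. On that scale, transcripts of up to 1000 nt had a median of 2.9 in dKO replicate 3, and of 0.79 and 1.21 in dKO replicates 1 and 2. Results are therefore given also with the trend on length and GC content removed from each library.

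Kit, which encodes the CD117 used in the sort, was 44484.1 to 47836.7 in WT and 4099.4 to 11934.8 in dKO, a fall of 2.99 ± 0.39 (SE) on the log2 scale (adjusted p = 0.000326; -1.72 and 0.00122 with the trend removed). Ly6a, which encodes Sca-1, was 1967.9, 2445.6 and 13218.1 in dKO and 1989.9 to 2338.7 in WT. Summed marker levels of other cells also moved: 4 of 5 B cell markers were matched and summed to 1721.1 to 7693.9 in dKO against 996.2 to 1544.7 in WT, and 4 of 5 macrophage markers to 759.1 to 1594.2 against 191.9 to 483.8. The 7 mature neutrophil markers summed to 1031.3 to 6085.4 in dKO, 860.3 to 3217.8 in WT and 467.6 to 757.3 in Tet2 KO. For 5 of 7 erythroid markers the sum was 1063 to 1365.4 in dKO, 257.1 to 596.7 in WT and 750.2 to 6571.1 in Tet2 KO. These sums are on the deposited values, which follow transcript length in dKO. With the trend removed, the median log2 change in dKO against WT went from 1.59 to 0.45 for the tested B cell markers. It went from 2.15 to 0.82 for macrophage, from 0.7 to -0.8 for neutrophil and from 1.08 to -0.74 for erythroid markers. The 5 T cell markers summed to at most 100.4 in any library, with Cd3e at 0 in all 12. Of 7 stem and multipotent progenitor markers, 4 fell and 0 rose in dKO against WT (26.5% of all genes were lower). With the trend removed 2 fell and 1 rose (13.0% and 12.3%). Slamf1 was among the falls (-0.95, adjusted p = 0.0211, and -1.07, 0.0106 with the trend removed). It was also the 1 marker of the 7 called lower in Tet2 KO (-1.73, 0.0257, and -1.81, 0.00516), and 0 were called in Traf6 KO. The part of these in the results on the network was not tested, and in bulk RNA fewer cells of a type and less RNA per cell cannot be told apart.

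Myc (chromosome 15, 61985391 to 61990374, plus strand, GRCm38) was by far the most abundant of the 10, and no difference between genotypes passed the test. The WT libraries had normalised counts of 18778.3, 19732.4 and 19670.5, and those of dKO 27733, 28913.9 and 19627. Traf6 KO gave 11543.4, 17426.5 and 21305.2; Tet2 KO gave 18725.9, 23839.5 and 23185.6. The WT libraries lay close together, while Traf6 KO and dKO each spread widely and both reached into the WT range. The dKO change against WT was 0.37 ± 0.24 (log2, SE; adjusted p = 0.214), that of Traf6 KO -0.26 ± 0.24 (adjusted p = 0.848) and that of Tet2 KO 0.17 ± 0.24 (adjusted p = 1). The lowest Myc value was in the library labelled Traf6 KO replicate 1, the one with both Xist and Eif2s3y, and leaving it out made the Traf6 KO change -0.01 (adjusted p = 0.997). The largest difference for Myc was between dKO and Traf6 KO, 0.63 ± 0.24, which missed the threshold (adjusted p = 0.0528). It passed in DESeq2 (0.62, 0.0378) and without dKO replicate 3 (0.80, 0.0256) or Traf6 KO replicate 3 (0.82, 0.0455), and stood at 0.38 (0.232) when the library labelled Traf6 KO replicate 1 was left out. Removing the trend gave 0.40 (0.18).

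Mycn (chromosome 12, 12936093 to 12941914, minus strand), the MYC paralogue, was low in both genotypes that lack Tet2 by label. The normalised counts of Mycn were 5099.6, 4574.4 and 3432.6 in WT and 3817.2, 2617.1 and 4315.2 in Traf6 KO. They were 2047.3, 2248.8 and 1398.2 in Tet2 KO and 2073.9, 2495.1 and 1009.8 in dKO. The 6 libraries without Tet2 by label (1009.8 to 2495.1) all lay below the 6 others (2617.1 to 5099.6). This split follows the labels, since Tet2 RNA itself did not part these libraries, and was looked at after the values were seen. The same order held for 1.65% of the 14045 genes tested, and for no other of the 10 genes. With the trend removed the share was again 1.65%, Mycn again among them. There, 0.907% of genes had the opposite order, Mxd4 among them.

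In dKO, Mycn fell by 1.31 ± 0.34 on the log2 scale against WT (adjusted p = 0.00749), to 0.403 of the WT level. The fall kept its call with the trend removed (-1.17 ± 0.29, 0.0116) and without any 1 library of either group (-1.57 to -0.92). In Tet2 KO the change was of similar size, -1.21 ± 0.34, but its adjusted p was 0.188. Without the library labelled Tet2 KO replicate 1 it was -1.28 (0.174), and in DESeq2 on the recovered reads it passed (-1.20, 0.0355). In Traf6 KO it was -0.30 ± 0.34 (0.88). Between dKO and Tet2 KO it was -0.10 ± 0.34 (0.836), and between dKO and Traf6 KO -1.01 ± 0.34 (0.0334). That last call ended with the trend removed (-0.90, 0.0513), with the compared groups alone (0.116), with no filter (0.0565), and without Traf6 KO replicate 1 (-0.95, 0.0904), Traf6 KO replicate 3 (-0.86, 0.117) or dKO replicate 3 (-0.62, 0.111). Xist was 990.3 to 3825.6 in Tet2 KO and at most 1.3 in dKO, and its part in the Mycn values was not tested. The stem cell marker Slamf1 was also called lower in Tet2 KO and dKO against WT. The part of such a marker shift in the Mycn values was not tested either.

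The mix of the pair differed in the same way as Mycn. Per kb of transcript, Mycn made up 19.2%, 16.9% and 13.2% of the summed Myc and Mycn level in WT (16.4% ± 3.03, SD, n = 3). The share was 22.4%, 11.6% and 15.0% in Traf6 KO (16.3% ± 5.52). It was 8.72%, 7.62% and 5.01% in Tet2 KO (7.12% ± 1.91) and 6.14%, 7.02% and 4.30% in dKO (5.82% ± 1.39). The highest share in the libraries without Tet2 by label was thus below the lowest in the others. Removing the trend gave means of 15.4%, 15.6%, 6.75% and 6.88% in the same order of groups.

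Max (chromosome 12, 76937269 to 76962201, minus strand), the partner that every MYC protein needs, varied widely inside each genotype. The 3 WT libraries read 546.4, 1839.3 and 1068.5 and the 3 dKO libraries 623.1, 1333 and 852.5. Traf6 KO read 783.1, 307.4 and 775.7, Tet2 KO 1037.9, 469.5 and 696.2. All 4 groups overlapped. Traf6 KO differed from WT by -0.84 ± 0.49 (adjusted p = 0.74), Tet2 KO by -0.55 ± 0.49 (0.972) and dKO by -0.20 ± 0.49 (0.759), the last running from -0.65 to 0.22 as single libraries were left out. The SE of Max was the largest of the 10 genes. The ratio of Myc to Max per kb was accordingly loose, 28.5, 8.91 and 15.3 in WT against 15.0, 42.2 and 27.7 for Tet2 KO. Traf6 KO had 12.2, 47.1 and 22.8, dKO 37.0, 18 and 19.1, so no genotype stood apart.

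**Figure D1:**
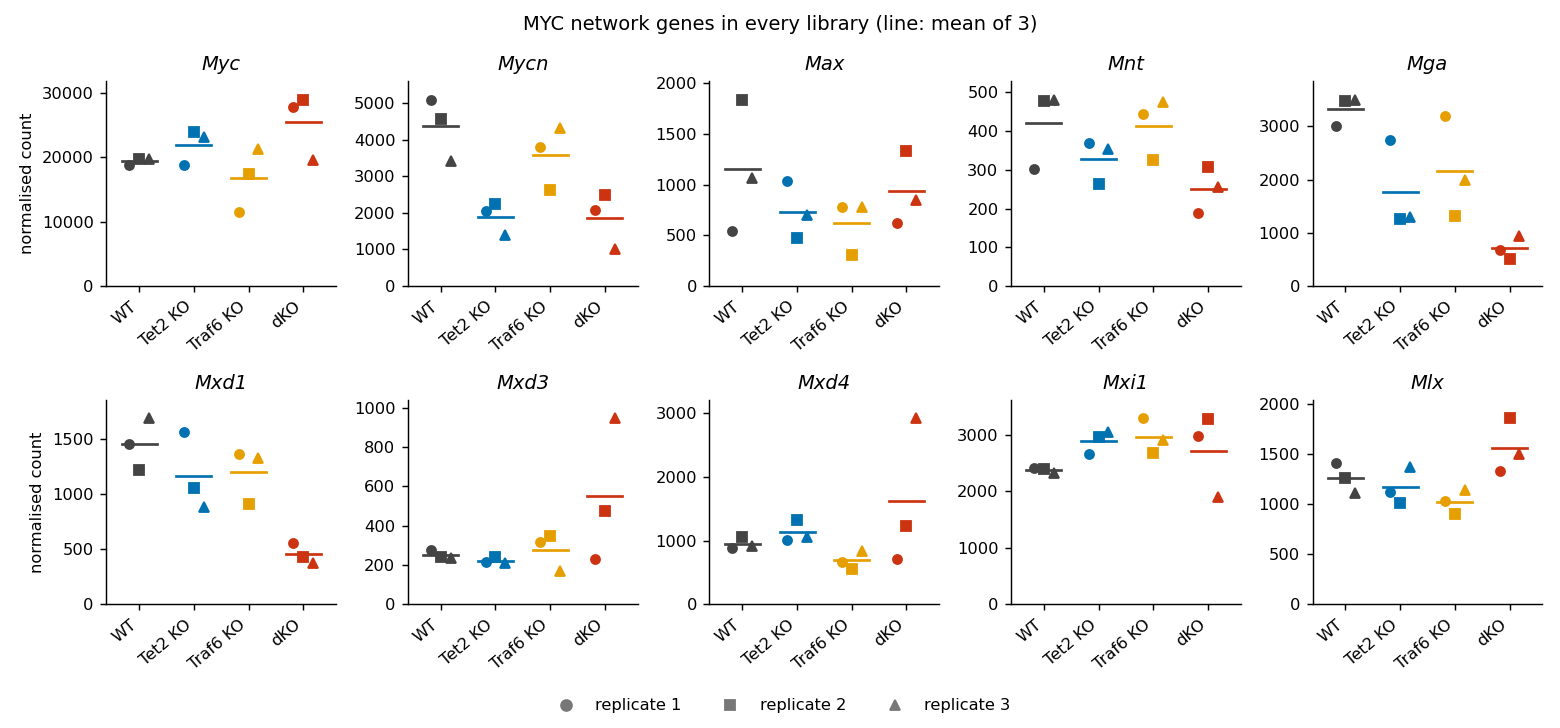
Normalised count of each of the 10 genes (y axis from 0) in WT, Tet2 KO, Traf6 KO and dKO; each point is 1 library, the marker shape gives its replicate number and the line is the mean of 3. The 6 Mycn points of Tet2 KO and dKO lie at or below 2495.1 and the others at or above 2617.1, and the dKO points of Mga and Mxd1 lie below all others.

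**Figure D2:**
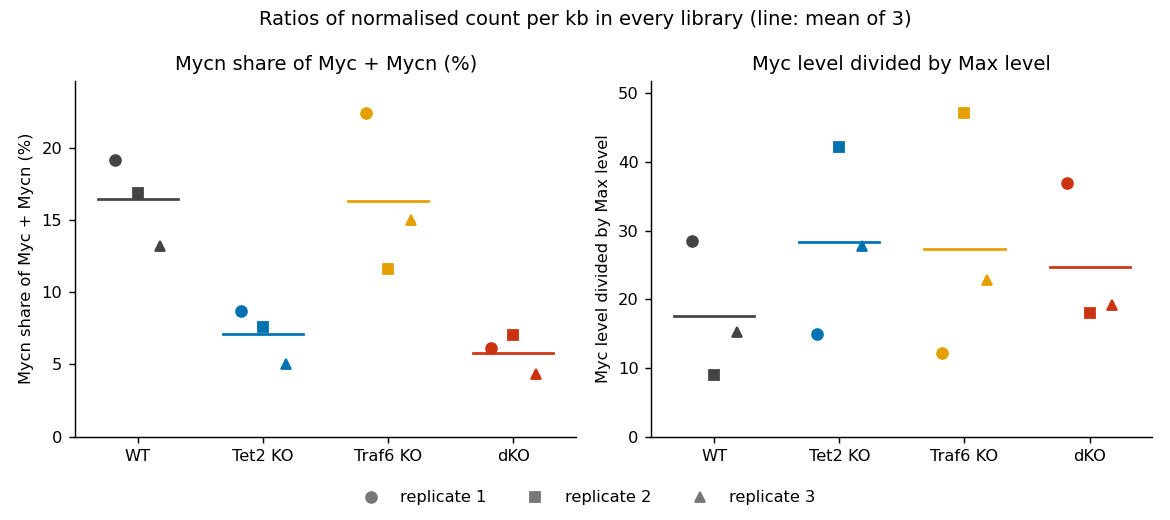
Left, the share of Mycn in the summed Myc and Mycn level per kb (%); right, the Myc level divided by the Max level per kb; points are libraries and lines are means of 3. The Mycn share is 4.30% to 8.72% in Tet2 KO and dKO and 11.6% to 22.4% in WT and Traf6 KO, while the Myc to Max ratios of the 4 groups overlap.

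Among the repressors, Mxd1 (chromosome 6, 86647042 to 86669161, minus strand), which encodes the MAD1 protein tied to cells leaving the cycle as they mature, was low in every dKO library. For Mxd1 the normalised counts were 1452.5, 1212.1 and 1684.1 in WT and 551.8, 433 and 371.7 in dKO. Traf6 KO had 1357.9, 910.6 and 1326.9, Tet2 KO 1554.7, 1052.3 and 878.5. The dKO values did not overlap with any other group. Mxd1 fell, with a log2 change of -1.68 ± 0.29 against WT (adjusted p = 0.000932), -1.34 ± 0.29 against Tet2 KO (0.00904) and -1.40 ± 0.29 against Traf6 KO (0.00465). All of these comparisons rest on the same 3 dKO libraries. With the compared groups alone the one against Tet2 KO had an adjusted p of 0.0631. None of the 3 calls held with the trend removed, where the values were -0.50 (0.103), -0.35 (0.293) and -0.39 (0.236). The 500 genes closest to Mxd1 in transcript length had a median change of -1.24 in dKO against WT, and 55.0% of them were called lower.

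Mxi1 (chromosome 19, 53310518 to 53375810, plus strand), which encodes another MXD-type repressor, was the steadiest of the 10, with the highest library at 1.74 times the lowest. WT read 2418.9, 2391.1 and 2320.8 normalised counts, dKO 2977.6, 3269.9 and 1894.4. Traf6 KO read 3290.6, 2676.3 and 2906.7, Tet2 KO 2652.7, 2959.4 and 3045.9. Both single knockouts lay above WT in all libraries, and dKO lay on both sides of it. No change against WT passed, with 0.31 ± 0.23 in Traf6 KO (adjusted p = 0.797), 0.28 ± 0.23 in Tet2 KO (0.957) and 0.15 ± 0.23 in dKO (0.603). The 500 genes closest in length had a median change of -1.42 in dKO, and 57.4% of them were called lower. Of these neighbours 87.2% lay below Mxi1. Once the trend was removed, Mxi1 was 1.28 ± 0.21 higher in dKO than in WT (0.00177). It was also higher than in Tet2 KO (0.78, 0.0329) and Traf6 KO (0.83, 0.0206). On the deposited values these 2 changes had the other sign and no call (-0.12, 0.693, and -0.16, 0.61). Their direction thus rests on the trend step. Its trend-removed values were 2021.9, 1769.8 and 1669.7 in WT and 3532.4, 6117.1 and 3981 in dKO, with no overlap. Without dKO replicate 3 the change against WT was 1.36 (0.00294).

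Mxd4 (chromosome 5, 34173883 to 34187720, minus strand), which encodes the MAD4 repressor, was spread widely in dKO. WT had normalised counts of 882.7, 1049.9 and 914.7, and dKO of 715.1, 1222.1 and 2918.5. Tet2 KO had 1008.3, 1322.4 and 1056.5, and Traf6 KO 668.5, 561.5 and 843.2. One library, dKO replicate 3, stood far above the rest. The change against WT was 0.53 ± 0.40 in dKO (adjusted p = 0.29), and -0.02 (0.968) without that library. Without dKO replicate 1 it was 1.0 (0.0242). Trend removal made it 1.59 ± 0.49 (0.0334), a call that ended when dKO replicate 3 was also left out. Traf6 KO stood at -0.47 ± 0.40 (adjusted p = 0.823), its libraries all below WT, and Tet2 KO at 0.24 ± 0.40.

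Mxd3 (chromosome 13, 55325168 to 55329823, minus strand), an MXD gene linked to dividing cells, was 168.6 to 345.7 in the 9 libraries of WT and the single knockouts. In dKO it was 229.9, 474.8 and 947.2, and dKO replicate 3 was again the highest. The change of 0.90 ± 0.45 in dKO missed the threshold (adjusted p = 0.115), reached it without dKO replicate 1 (1.41, 0.00941), was 0.39 (0.435) without dKO replicate 3, and was -0.32 with the trend removed. Mnt (chromosome 11, 74830920 to 74845725, plus strand), the repressor found in most tissues, had the lowest level per kb in WT. Mnt counts were 301.6, 478.7 and 480.9 in WT and 187.7, 307.8 and 255.6 in dKO. The groups overlapped through WT replicate 1. The change was -0.74 ± 0.33 (0.0738), and -0.96 (0.0461) without WT replicate 1. It was 0.69 ± 0.31 (0.12) with the trend removed, so its direction rests on that step.

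Mga (chromosome 2, 119897228 to 119969581, plus strand) had the longest transcript of the 10, 13931 nt, and the widest range, the highest library being 6.99 times the lowest. Normalised counts of Mga were 3014.9, 3486.8 and 3502.8 in WT and 667.2, 500.9 and 947.2 in dKO. Traf6 KO had 3196.9, 1323.6 and 1985.4, and Tet2 KO 2737.1, 1258.5 and 1301.4. Every dKO library lay below every other library, and every Tet2 KO library below every WT library. In the single knockouts the libraries labelled replicate 1, those whose Tet2 or Traf6 was at the WT level, held the highest Mga. Against WT, Mga fell in dKO by 2.29 ± 0.37 on the log2 scale (adjusted p = 0.000725), to 0.205 of the WT level. It kept the call with the trend removed, at -1.30 ± 0.29 (0.0074). Leaving out single libraries gave -2.52 to -2.06. The 500 genes closest in length had a median of -1.44, with 59.0% called lower, and 22.6% of them lay below Mga. Few genes are as long as Mga, so these 500 spanned 8578 to 22489 nt and were only loosely matched. The trend is likewise fitted on few genes at that length.

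Against the single knockouts Mga also fell in dKO, with a change of -1.27 ± 0.37 against Tet2 KO (adjusted p = 0.0214) and -1.58 ± 0.37 against Traf6 KO (0.00908). Neither call held with the trend removed (-0.68, 0.135, and -0.71, 0.115) or with the compared groups alone (0.0747 and 0.0568). The one against Tet2 KO also ended without the library labelled Tet2 KO replicate 1 (-0.91, 0.102) or dKO replicate 2 (-1.05, 0.0727). Set against WT, the Tet2 KO change was -1.01 ± 0.37 (0.375) and the Traf6 KO change -0.71 ± 0.37 (0.706). Without the libraries labelled replicate 1 these were -1.38 (0.109) and -1.04 (0.429).

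Mlx (chromosome 11, 101087277 to 101092207, plus strand) varied little, its highest library being 2.06 times the lowest. WT gave 1409.9, 1260.1 and 1108 normalised counts, dKO 1332.6, 1859.9 and 1501.2. Traf6 KO gave 1028.7, 903.7 and 1146.7, Tet2 KO 1123.3, 1011.6 and 1374.9. The dKO libraries lay above all Traf6 KO libraries and reached into the WT range. The dKO change against WT was 0.31 ± 0.24 (adjusted p = 0.3), the Traf6 KO one -0.29 ± 0.24 (0.808) and the Tet2 KO one -0.11 ± 0.24 (1). Mlx shares 385 exon bases with Psmc3ip on the opposite strand and Mxd3 shares 105 with Prelid1. Mxd4 shares 514 with Gm42846, which was not analysed here, and Mxi1 194 with Gm10197, listed at 0, also on the opposite strand. The kit does not mark strand, so reads there could belong to either gene.

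**Figure D3:**
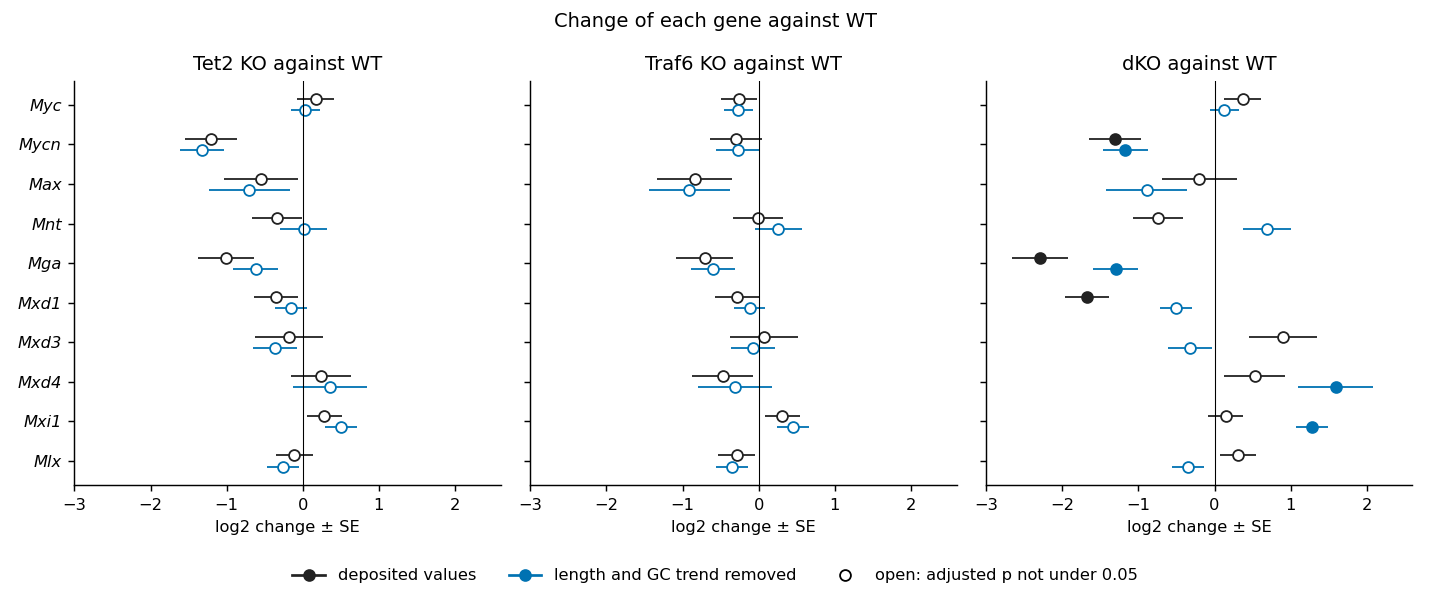
Log2 change ± SE of each of the 10 genes against WT in Tet2 KO, Traf6 KO and dKO, on the deposited values (black) and after removal of the length and GC trend (blue); filled points passed an adjusted p of 0.05. Only the dKO panel has filled points: Mycn and Mga on both scales, Mxd1 on the deposited values, Mxd4 and Mxi1 with the trend removed.

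Counted over the 10 genes, none passed in Tet2 KO against WT, where 0.413% of all tested genes did (0.475% with the trend removed), and none in Traf6 KO against WT, where 0.271% did (0.519%). At an unadjusted p under 0.05 the counts were 2 and 0 in limma, and by adjusted p DESeq2 gave 1 (Mycn) and 0, and edgeR 0 and 0. The shares of all genes at these settings are not given here, so these counts cannot be set against a background. The groups did not overlap for 3 of 10 genes in Tet2 KO (Mycn, Mga, Mxi1), against 19.2% of all genes, and for 2 of 10 in Traf6 KO (Mxd4, Mxi1), against 20.7%. The median change of the 10 was -0.26 in Tet2 KO and -0.29 in Traf6 KO, beside 0.02 and -0.03 over all tested genes.

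In dKO against WT 3 of the 10 passed, all lower (Mycn, Mga, Mxd1), where 48.3% of all genes passed, 26.5% lower and 21.9% higher. The groups did not overlap for the same 3, against 58.4% of all genes. The count of 3 in 10 lies under the background share, and that difference was not tested. The median change was -0.02, beside -0.09 over all genes. After removal of the trend 2 rose (Mxd4, Mxi1) and 2 fell (Mycn, Mga), where 25.3% of all genes passed, 12.3% higher and 13.0% lower. Against Tet2 KO, 2 of 10 fell (35.3% of all genes passed, 19.9% lower) and 2 did not overlap (46.2%), and with the trend removed 1 rose (11.8% passed, 6.82% higher). Against Traf6 KO, 3 of 10 fell (38.0% passed, 20.7% lower) and 5 did not overlap (45.0%), and with the trend removed 2 rose (15.6% passed, 7.74% higher). These comparisons share the dKO libraries.

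For the interaction, which asks whether the loss of both genes differs from the sum of the single losses, none of the 10 passed in limma, where 0.221% of all genes did (0.183% with the trend removed), nor in edgeR or DESeq2. Mxd1 had the smallest limma p of the 10 (-1.05 ± 0.41, adjusted p = 0.25, and -0.23 with the trend removed). For Myc the interaction was 0.46 ± 0.34 (adjusted p = 0.411). The interaction sets WT and dKO together against both single knockouts. That is also the split of the libraries by Xist, so genotype and that split cannot be told apart here.

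Levels per kb of transcript allow the genes to be set side by side, here on the deposited values only. In WT the order was Myc (8295 ± 228, SD, n = 3), Mycn (1633.8 ± 319), Mlx (641), Max (593), Mxi1 (472), Mxd1 (311), Mxd4 (245), Mga (239), Mxd3 (190) and Mnt (91.6). Neighbours whose libraries overlapped were Mlx and Max, Max and Mxi1, Mxd1 and Mxd4, and Mxd4 and Mga. In dKO Myc was again first (10874.5 ± 2162.3), Mlx (796), Mycn (695), Mxi1 (539) and Max (482) followed with overlapping libraries, and Mga was last (50.6), overlapping with Mnt (54.5). Because dKO values follow transcript length, this order below Myc depends on the scale. With the trend removed, the mean dKO count went from 2714 to 4543.5 for Mxi1 and from 1564.6 to 1142.1 for Mlx. Mycn was second in WT, Tet2 KO and Traf6 KO, but in Tet2 KO its libraries overlapped with those of Mlx.

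**Figure D4:**
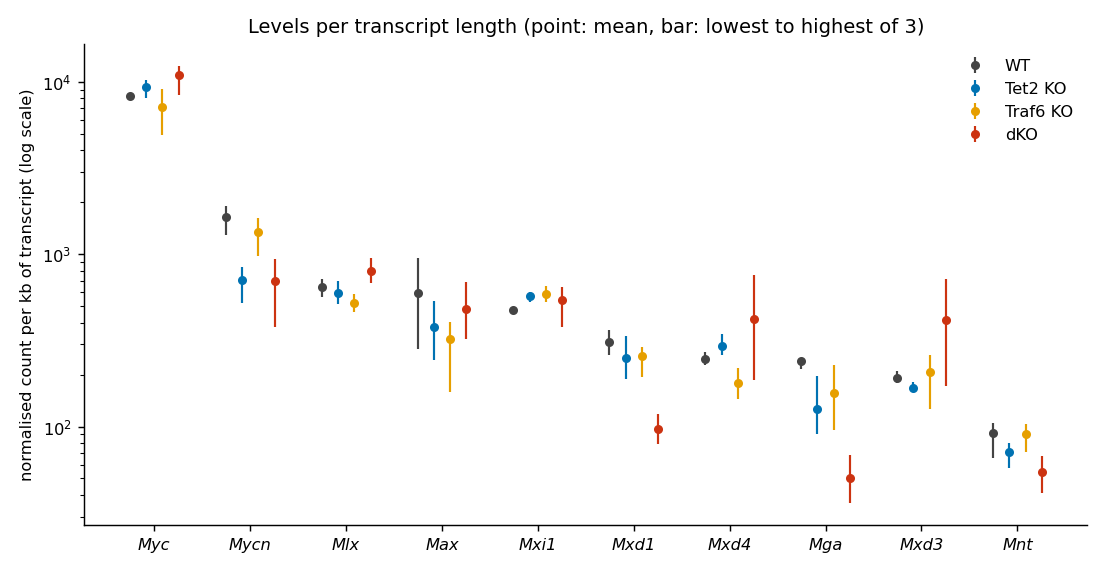
Normalised count per kb of transcript (log scale) of the 10 genes in the 4 genotypes; points are means of 3 libraries and bars run from the lowest to the highest library. Myc lies above every other gene in each genotype (WT mean 8295), and the dKO means of Mga (50.6) and Mxd1 (96.9) lie under their other groups. The values are as deposited and follow transcript length in dKO.

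The 6 MAX-binding repressors (Mnt, Mga, Mxd1, Mxd3, Mxd4, Mxi1) were set as a sum against Myc and Mycn, each per kb. The ratio of activators to repressors was 6.42 ± 0.283 in WT (SD, n = 3), 5.89 ± 1.88 in Traf6 KO and 6.85 ± 1.07 in Tet2 KO. In dKO it was 10.9, 8.76 and 4.29, on both sides of WT. Trend-removed means were 8.19 in WT and 5.46 ± 3.07 in dKO, so the order of WT and dKO turned. The make-up of the repressors differed: Mxd1 was 20% ± 2.99 of their sum in WT and 6.73% ± 3.20 in dKO (18.4% and 8.04% with the trend removed), with no overlap of libraries on either scale. A share also depends on the other repressors. Their sum was 1548.7 per kb in WT and 1573.9 in dKO (1275.3 and 2236.5 with the trend removed). Mxd4 was 15.8% ± 1.54 of it in WT and 24.5% ± 10.9 in dKO, with 36.8% in dKO replicate 3. Mxd1 itself was not called with the trend removed (-0.50, adjusted p = 0.103). Mxi1 was 30.5% ± 1.47 in WT, 37.4% ± 17 in dKO, 39.8% ± 1.01 in Traf6 KO and 38.9% ± 4.89 in Tet2 KO. Its share was above WT in each library of both single knockouts.

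**Figure D5:**
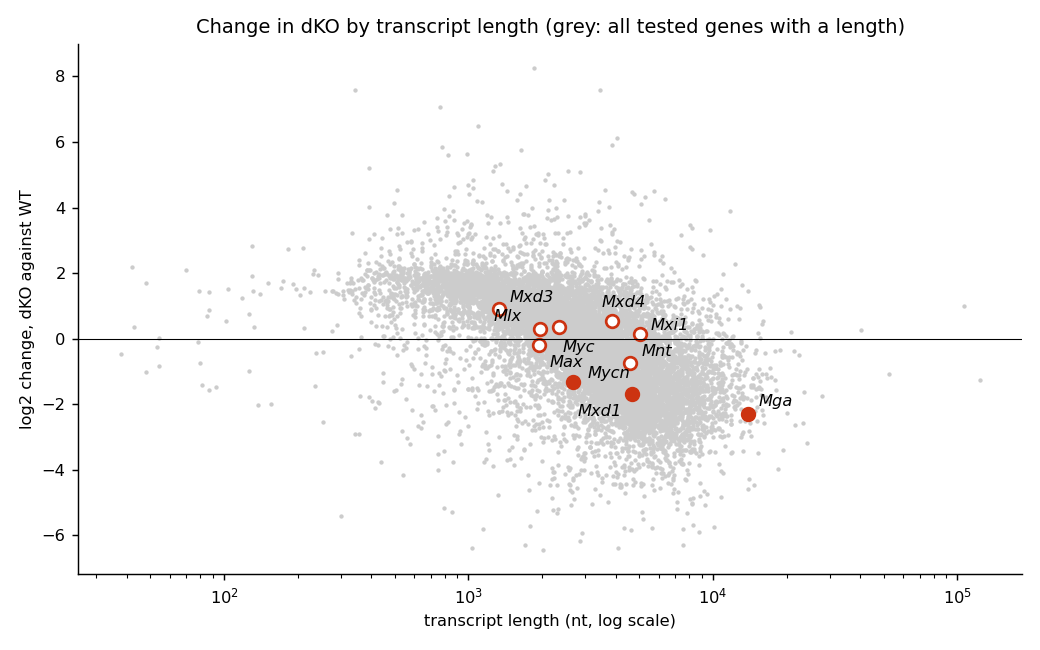
Log2 change in dKO against WT by transcript length (nt, log scale) for all tested genes with a length (grey) and the 10 genes (red; filled where the adjusted p was under 0.05). Long transcripts lie low as a whole, and Mxi1 (0.15) and Mxd4 (0.53) lie above most genes of their length, whose medians were -1.42 and -0.85.

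Proteins that work with the network were read from lists, whose counts in dKO against WT stand beside 21.9% of all tested genes called higher, 26.5% called lower and a median of -0.09 (12.3%, 13.0% and -0.07 with the trend removed). Of 19 MYC-binding coactivators (cofactors that MYC recruits), 8 rose and 5 fell in dKO, with a median of -0.12, where 48.3% of all genes passed; with the trend removed 4 rose and 1 fell (25.3%). Hcfc1, a MYC cofactor with a long transcript (8262 nt), fell in dKO (-2.47 ± 0.32, adjusted p = 0.000326; -1.16, 0.00296 with the trend removed). It was also the single coactivator to pass in Tet2 KO (-1.70 ± 0.32, 0.0409; -1.09, 0.0451), where its normalised counts were 2440.7, 1355.3 and 1927.7, against 4528.4, 7016.9 and 6925.8 in WT. Ruvbl2, an ATPase of chromatin complexes, rose in dKO (1.21 ± 0.23, 0.00148; 1.11, 0.00169). The scaffold Trrap (-1.47, 0.00172) and the elongation kinase Cdk9 (0.91, 0.00417) passed only on the deposited values (-0.44, 0.199, and 0.09, 0.712 with the trend removed).

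Of 18 genes of the SIN3-HDAC corepressor, which the MXD proteins and MNT recruit, 6 rose and 3 fell in dKO, with a median of 0.32, and 6 rose and 1 fell with the trend removed. On the deposited values that is 9 of 18, near the 48.3% of all genes. Ing2, a SIN3 subunit, rose on both scales (1.18 ± 0.26, adjusted p = 0.00339; 1.21, 0.00606). The scaffold Sin3a fell (-1.41 ± 0.33, 0.0045), but not with the trend removed (-0.15, 0.684). Of 13 genes of the MGA complex, 1 rose and 2 fell in dKO, where 48.3% of all genes passed. Pcgf6, which marks this Polycomb form, rose (0.68, 0.0199) and L3mbtl2 fell (-1.22, 0.0235), neither past the threshold with the trend removed (0.573 and 0.277). Tfdp2, the E2F partner in the complex, fell on the deposited values (-0.74, 0.0156) and rose with the trend removed (0.49, 0.0128).

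Of 40 genes known to be activated by MYC, 23 rose and 4 fell in dKO (21.9% of all genes higher, 26.5% lower), with a median of 0.69 beside -0.09; with the trend removed 11 rose and 3 fell (12.3% and 13.0%), with a median of 0.28 beside -0.07. Gnl3, a nucleolar growth gene, rose (1.33 ± 0.21, adjusted p = 0.000634; 0.63, 0.0182), as did Ldha, which makes lactate, on the deposited values (1.16, 0.00118; 0.36, 0.16). Cad, an enzyme of pyrimidine synthesis and a textbook MYC target, fell (-2.79 ± 0.41, 0.000471; -1.36, 0.00828). In the single knockouts 1 of the 40 passed, Ung, a uracil-DNA glycosylase. Its normalised counts were 1521.3 to 1860.1 in WT and 120.1 to 353.9 in the 9 other libraries, those labelled replicate 1 included. Its fall had a log2 change of -3.54 ± 0.30 (adjusted p = 6.96e-05) for Tet2 KO, -2.86 ± 0.30 (0.000347) for Traf6 KO and -2.69 ± 0.30 (0.000291) for dKO. Ung was also the 1 gene of this list past the threshold for the interaction (3.71 ± 0.42, 0.00109). The value is positive because Ung was low in each knockout group, so the single falls did not add up in dKO. Genotype and the split by Xist cannot be told apart in this value.

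Of 11 tested genes known to be repressed by MYC, 3 rose and none fell in dKO, with a median of 0.19; the 3 of 11 lies near the 21.9% of all genes called higher. Cdkn1a, which encodes the cell cycle inhibitor p21, was 84.4, 198.8 and 274.1 in WT and 1271.6, 1513 and 981.2 in dKO, a rise of 2.88 ± 0.50 (adjusted p = 0.00103; 2.42, 0.00488 with the trend removed). The stress genes Gadd45a (1.39, 0.0199) and Gadd45b (1.39, 0.0341) rose on the deposited values and stood at 0.06 and 0.12 with the trend removed. Of 30 proliferation genes 8 rose and 8 fell (7 and 1 with the trend removed), beside 21.9% and 26.5% of all genes. The mitotic kinase Cdk1 rose (1.38, 0.00422; 2.35, 0.00248) and the mitotic motor Kif11 fell (-1.95, 0.00452; -1.02, 0.0295). The centromere gene Cenpf (-1.63, 0.00146) and the topoisomerase gene Top2a (-1.66, 0.00319) fell on the deposited values and stood at -0.55 (0.131) and -0.59 (0.071) with the trend removed. The 2 targets of MLX and MondoA, Txnip and Arrdc4, passed in no comparison. Txnip, a brake on glucose uptake, was 12828.5 to 21208 in dKO and 20382.6 to 27462.2 in WT. Mlxip, which encodes MondoA, was 1800.5 ± 256 in WT and 1445.6 ± 276 in dKO (SD, n = 3), with no call on the deposited values, and passed as higher in dKO with the trend removed (1.05).

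Genes with a pattern most like a member's were found by the mean absolute difference of log2 values, each centred on its mean over the 12 libraries, among 11401 genes with a mean of at least 50. For Myc they were Pgs1 (0.113), Thoc5 (0.119), Slc17a9 (0.123), Cyb5r4 (0.132) and Thap4 (0.133). The median over genes was 0.533 and Myc's own mean deviation 0.238, so a flat gene would also be close. Within the network the closest to Myc were Mlx (0.229) and Mxi1 (0.241), and Mga was the farthest (1.003). For Mga the closest were A430078G23Rik (0.132), Akap13 (0.175), Tbc1d4 (0.177), Arhgef40 (0.182) and Zmym4 (0.185), with a median over genes of 0.868. For Mxd1 they were Ccnt2 (0.134), Ttc3 (0.135), C2cd2 (0.138), Slc39a10 (0.144) and Sft2d2 (0.148), with a median of 0.671. Mga and Mxd1 differed from each other by 0.384. All points share the libraries and their length trend, and the transcripts nearest to Mga and Mxd1 were 2945 to 12597 nt and 5498 to 8298 nt long.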

How the data were processed

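The authors deposited a normalised signal per gene and library; per the submitters' processing notes bcl2fastq, STAR, featureCounts and DESeq2 were used with builds mm10 and GRCm38, and versions, annotation and strand setting are not given in the sources used here. Per the labels' protocols, RNA was amplified with SMART-Seq v4, which does not mark strand. Dividing by each library's smallest value above 0 gave whole reads for 100% of values (tolerance 1e-06). The 14045 genes that reached 10 in 3 or more libraries were tested with limma 3.58.1 (R 4.3.3; trend, robust) on log2(value + 1), all 12 libraries as 4 groups, with Benjamini-Hochberg adjustment per comparison over all genes and a threshold of 0.05; changes are on that scale, which understates low genes. No label says that a group's libraries came from separate animals; p-values then reflect only library-to-library spread, possibly technical.

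In the trend-removed alternative, a loess (span 0.5) of each library's log2 values, relative to the mean of all libraries, on log length and GC content was subtracted (13677 genes, 97.4% of those tested; GENCODE M21 longest coding transcripts). Where these cells use a shorter transcript of a gene, its trend-removed change and its level per kb would be off. Cdk1, for example, was placed at 4375 nt. Which transcripts were used was not tested. Other alternatives were a pseudocount of 5, no filter, equal library totals, a replicate block, the compared groups alone, edgeR 4.0.16 and DESeq2 1.42.0 on the recovered reads, and leaving out each library. The fit was tested on simulated data. The members and lists were chosen with earlier results of these data known. All 10 members are named, with Myc and members past the threshold in comparisons between knockouts; from each list up to 4 genes with the smallest p against WT could be named; likeness was run for Myc and the 2 other members with the widest range of group means.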

Additional observations from a re-analysis of the deposited data

How the results depend on the processing

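Over 38 log2 changes of members and 613 alternative values, 542 kept direction and side of the threshold, 25 lost and 17 gained a call, and 29 changed sign, none of them called on the deposited values. The count of members called in Tet2 KO against WT went from 0 to 1 with the compared groups alone, in DESeq2, and with the trend removed without dKO replicate 3. In dKO against WT it went from 3 to 5 in DESeq2 (3 to 5 leaving out single libraries). In dKO against Tet2 KO it went from 2 (Mga, Mxd1, both lower) to 1 other gene (Mxi1, higher) with the trend removed, to 1 with the replicate block and the trend removed, and to 0 with the compared groups alone (1 to 3 leaving out single libraries). In dKO against Traf6 KO it went from 3 to 1 with the compared groups alone and to 6 in DESeq2 (2 to 6). Apart from the trend removal, the shares of all genes called in these alternatives are not given here. The counts thus cannot be set against a background. Signs changed with the trend removed, with the replicate block added to that, and with dKO replicate 3 also left out, in that order, for Mnt in Tet2 KO (0.01, 0.01, 0.00), Traf6 KO (0.26, 0.26, 0.26) and dKO (0.69, 0.69, 0.53), Mxd3 in Traf6 KO (-0.07, -0.07, -0.07) and dKO (-0.32, -0.32, -0.40) and Mlx in dKO (-0.35, -0.35, -0.20). Leaving out single libraries gave -0.23 to 0.16 for Mnt and -0.12 to 0.39 for Mxd3 in Traf6 KO, and in dKO against WT -0.65 to 0.22 for Max, -0.02 to 1.0 for Mxd4 and 0.00 to 0.39 for Mxi1. With equal library totals, which move the median of all genes in dKO against WT from -0.09 to -0.34, Mxi1 stood at -0.10 and Myc at -0.05 against Tet2 KO. Mxi1 in dKO against the single knockouts, not counted among the 38, also changed sign with the trend removed. It went from -0.12 to 0.78 against Tet2 KO and from -0.16 to 0.83 against Traf6 KO. The cause of these differences was not tested. Replicate numbers did not pair the libraries: correlations of same-numbered deviations were -0.177 to 0.193, over 0.1 in 3 of 18 pairs, and 4 of 12 libraries correlated best with their own number. With the replicate block alone the counts were 0, 0, 3, 2, 3 and 0, as without it.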
